A study of Mus musculus with 3 samples.

Results

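Calprotectin and neutrophil granule genes were a set of 10 genes, S100a8, S100a9, Ngp, Camp, Ltf, Retnlg, Mmp8, Pglyrp1, Chil3 and Wfdc21, taken by symbol from the 32285 genes counted in each library. All 10 had UMIs (unique molecular identifiers, tags that count RNA molecules) in the LPS library, 7 in control 1 and 8 in control 2. The levels came from droplet single-cell RNA sequencing of mouse aortic arch cells, freed from the innermost layer (intima) along the lesser curvature. The LPS library held cells of C57BL/6J wildtype mice that received 30 µg of ultrapure lipopolysaccharide (LPS), a cell wall component of Gram-negative bacteria and ligand of Toll-like receptor 4, by the intravenous route 18 h before harvest. The libraries control 1 and control 2 came from mice of the same strain and genotype without LPS. All mice were 12 to 13 weeks old, both sexes were pooled, and each library held the cells of 5 to 10 animals, so no value belongs to a single animal. Vessels of every group were perfused with the transcription blocker actinomycin D and digested with collagenase D and DNase I.

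Neutrophils are short-lived white cells that carry ready-made antimicrobial proteins in granules, and they leave the blood in numbers when a vessel wall is inflamed. S100a8 and S100a9 encode the subunits of calprotectin, a cytosolic protein pair that binds calcium, zinc and manganese and is abundant in neutrophils and in some monocytes. Ngp (neutrophilic granule protein), Camp (the cathelicidin precursor) and Ltf (lactoferrin, which binds iron) belong to specific granules, which are filled while the cell matures in bone marrow, and Mmp8 is a collagenase of neutrophils. Retnlg encodes a resistin-like protein of mature neutrophils, Pglyrp1 a peptidoglycan-recognition protein, Chil3 a chitinase-like lectin also made by monocytes and macrophages, and Wfdc21 a small whey acidic protein domain protein.

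On the GRCm38 assembly, GENCODE release M21 places S100a8 at chr3:90668978-90670035 on the plus strand and S100a9 at chr3:90692632-90695721 on the minus strand. Chil3 lies on the same chromosome at chr3:106147554-106167564. Of the specific granule genes, Camp lies at chr9:109847379-109849617, Ngp at chr9:110419747-110423012 and Ltf at chr9:111019271-111042767, and Mmp8 shares the chromosome at chr9:7558456-7568485. The others are Pglyrp1 at chr7:18871331-18890459, Wfdc21 at chr11:83746940-83752642 and Retnlg at chr16:48872621-48874496. None of the 10 overlaps another annotated gene. Chil3 has a near-identical neighbour in Chil4, so its count is uncertain in principle, and Chil4 had 0 UMIs in neutrophil-like barcodes of all libraries.

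Promoter letters from RefSeq (GRCm38.p6) are shown for 4 genes. S100a8 and S100a9 are neighbours whose transcripts went together in neutrophil-like barcodes and apart in monocyte-like ones, and Ngp and Ltf are specific granule genes without a UMI in control neutrophil-like barcodes. Each run is the gene's own strand 5′ to 3′ and ends before the more upstream of the RefSeq and GENCODE gene starts (S100a8 chr3:90668821-90668977, S100a9 chr3:90695722-90695971, Ngp chr9:110419558-110419746, Ltf chr9:111019042-111019270). Capitals mark matches to TTNCNNAA on either strand, a loose form of the site of C/EBP proteins, which drive granulocyte development.
S100a8: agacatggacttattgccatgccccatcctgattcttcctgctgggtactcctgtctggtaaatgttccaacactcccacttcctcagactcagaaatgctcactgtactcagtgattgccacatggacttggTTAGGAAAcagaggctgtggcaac
S100a9: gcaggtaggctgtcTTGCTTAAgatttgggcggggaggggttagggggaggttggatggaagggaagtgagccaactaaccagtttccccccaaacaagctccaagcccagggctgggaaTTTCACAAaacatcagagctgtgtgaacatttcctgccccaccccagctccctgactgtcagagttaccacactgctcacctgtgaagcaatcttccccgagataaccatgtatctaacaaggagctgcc
Ngp: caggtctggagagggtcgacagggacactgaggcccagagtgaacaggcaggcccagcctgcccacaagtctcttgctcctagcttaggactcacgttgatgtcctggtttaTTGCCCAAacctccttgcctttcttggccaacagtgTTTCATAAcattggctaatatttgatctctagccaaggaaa
Ltf: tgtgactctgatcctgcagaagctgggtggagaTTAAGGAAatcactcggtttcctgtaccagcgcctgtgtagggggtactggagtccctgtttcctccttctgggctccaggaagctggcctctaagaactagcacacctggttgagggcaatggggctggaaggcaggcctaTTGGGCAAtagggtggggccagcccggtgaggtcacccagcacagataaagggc
Of the 10 genes, 9 had a promoter entry, and in the 250 bases before the RefSeq start 7 of these 9 held the C/EBP-type letters, against 36.8% of 32851 promoters. The letters GAGGAA of the granulocyte factor PU.1 were in 4 of the 9, against 23.3%. An NF-kB-type pattern, GGG and CC with 5 bases of any kind between them, was in 3 of the 9, against 45.8%. A match describes letters and is not evidence of binding.

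The LPS library held 6000 barcodes and 21864072 UMIs, control 1 held 1269 and 4940996, and control 2 held 4813 and 20069697. After filters on UMIs, genes and mitochondrial share, 5156, 431 and 2697 barcodes were kept in that order, with a median of 2029, 1904 and 3944 UMIs. The libraries stood apart in quality. The transcript Gm42418, which overlaps ribosomal RNA sequence, made up 28.6% of LPS UMIs, 9.81% of those of control 1 and 1.59% of those of control 2. Unnamed sub-clusters rich in it held 3246 of the kept LPS barcodes, against 3 and 1 in the controls. These barcodes are called near-empty, a name that was not tested, since their LPS median of 1895 UMIs was near that of all kept LPS barcodes. A sub-cluster led by Nppa, Mb and Tnnt2 held 37 of the LPS ones and the 3 and 1 of the controls. The LPS library shared 1 barcode sequence with control 1 and 6 with control 2, the controls shared 2, and 0 neutrophil-like barcodes were among these.

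Neutrophil-like barcodes were taken without any of the 10 genes, as those with UMIs of at least 3 of 15 other neutrophil markers (Csf3r, Cxcr2, Mmp9, Ly6g and the like) and more UMIs of these than of macrophage markers. By this rule 34 barcodes of the LPS library, 3 of control 1 and 1 of control 2 were neutrophil-like. They were 0.659% (95% exact Clopper-Pearson interval 0.457 to 0.920) of kept LPS barcodes, 0.696% (0.144 to 2.02) of those of control 1 and 0.0371% (0.000939 to 0.206) of those of control 2. The LPS share thus lay inside the interval of control 1. Near-empty barcodes filled most of the LPS total, and without them the shares were 1.78% (1.24 to 2.48), 0.701% (0.145 to 2.03) and 0.0371% (0.000939 to 0.206). The intervals cover counting error only, barcode selection differed between libraries, and 1 library against 2 cannot reach an exact permutation p below 0.333, so no share was tested. In the LPS neutrophil-like barcodes all 15 markers were detected, against 10 in control 1 and 6 in control 2. These barcodes held 429259, 8090 and 3175 UMIs in that order, so the counts of detected markers do not rank the libraries. Per UMI the markers were not lower in the controls, at 7862 CPM in the LPS library, 10383 in control 1 and 9764 in control 2. Of 12 macrophage markers 9 were also detected in the LPS barcodes, with 91 UMIs (212 CPM). C1qc, Mrc1 and Cx3cr1 had 0 UMIs there.

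Over all kept barcodes each of the 10 genes was higher in the LPS library than in both controls. S100a8 had 44656 UMIs in the LPS library, 252 in control 1 and 184 in control 2, which is 2272, 135 and 13.0 on the counts-per-million scale over kept UMIs (CPM). S100a9 had 53648, 386 and 143 UMIs in the same order, or 2729, 207 and 10.1 CPM. The controls themselves lay apart for both genes, and the LPS value lay above both.

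Specific granule genes were nearly or wholly missing from the controls. Ngp had 8106 UMIs in the LPS library and 0 in each control, at least 2200-fold higher against a floor of 3 UMIs over both controls. Camp had 1609 LPS UMIs and again 0 in each control, at least 437-fold higher. Ltf had 632 LPS UMIs, 0 in control 1 and 2 in control 2, a ratio of 257 (95% counting interval 70.9 to 2129) to the pooled controls. The 2 Ltf UMIs of control 2 lay outside its neutrophil-like barcode.

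The other genes had some UMIs in the controls. Retnlg had 2990 UMIs in the LPS library, 42 in control 1 and 8 in control 2, and Mmp8 had 855, 5 and 12. Wfdc21 had 1927, 2 and 1 UMIs, 523-fold (179 to 2538) over the pooled controls. Chil3 had 2879, 6 and 65 UMIs and Pglyrp1 1310, 18 and 64, the smallest ratio of the 10 at 13.0-fold (10.4 to 16.5). The control UMIs of Chil3 and Pglyrp1 lay mostly outside neutrophil-like barcodes, which held 0 of 6 and 0 of 65 Chil3 UMIs and 3 of 18 and 0 of 64 Pglyrp1 UMIs in control 1 and control 2. Those of Retnlg were all neutrophil-like (42 of 42 and 8 of 8), as were those of Wfdc21 (2 of 2 and 1 of 1), and those of Mmp8 were so in part (4 of 5 and 8 of 12).

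**Figure D1:**
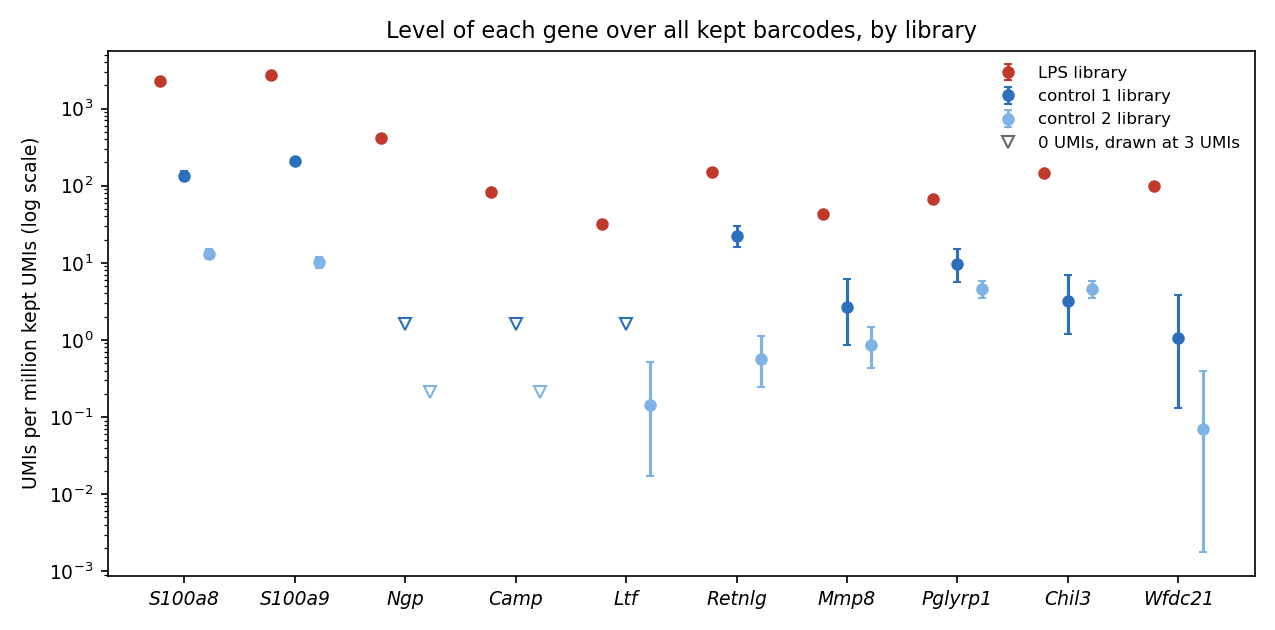
Points give CPM over kept UMIs (log axis) of each gene in the LPS library, control 1 and control 2, with exact Poisson 95% intervals that cover counting error only, and open triangles mark 0 UMIs drawn at the level of 3 UMIs. For every gene the LPS point lies above both controls, and Ngp and Camp have 0 UMIs in both.

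In edgeR's quasi-likelihood test on UMIs summed per library (1 LPS library against 2 controls, Benjamini-Hochberg adjusted p under 0.05), 10 of 10 genes were called higher, where 13.4% of all 14714 genes tested were called higher and 9.71% lower. The fitted log2 fold change was 6.06 ± 1.17 for S100a8 (SE, adjusted p = 0.0106), 5.75 ± 1.39 for S100a9 (adjusted p = 0.0242) and 5.32 ± 1.35 for Retnlg (adjusted p = 0.0291). It was 8.996 ± 0.51 for Ltf, 6.32 ± 0.48 for Mmp8, 4.58 ± 0.40 for Pglyrp1, 6.24 ± 0.31 for Chil3 and 9.97 ± 0.64 for Wfdc21, with adjusted p between 1.52e-04 and 5.23e-04. The fit gave an adjusted p of 1.66e-04 for Ngp and 1.52e-04 for Camp. Ngp, Camp, Ltf and Wfdc21, with 0 to 2 UMIs in each control, passed the filter on low counts through the LPS library alone and so had to differ, and the count of 10 is a description that includes them. These sums mix the number of neutrophil-like barcodes with the level in each, and 97.1% of the 118612 LPS UMIs of the 10 genes, 96.9% of 711 in control 1 and 71.0% of 479 in control 2 lay in neutrophil-like barcodes. With neutrophil-like barcodes left out, S100a8 had 1227 UMIs in the LPS library, 0 in control 1 and 3 in control 2, and S100a9 had 1262, 0 and 1. In that fit 14.7% of 14663 genes were called higher and 10.8% lower, and 9 of the 10 were called higher. All of these but Chil3 had 0 to 4 UMIs in each control, passed the filter through the LPS library alone and so had to differ. Pglyrp1 was not called there (log2 fold change 1.29 ± 0.49, adjusted p = 0.0857, edgeR). The calls of S100a8, S100a9 and Retnlg were lost under some alternatives (adjusted p = 0.0502 and 0.0739 for S100a8 and S100a9 with a mitochondrial limit of 10%, and 0.0513 for Retnlg with RLE size factors). On the log2(CPM + 1) scale their differences from the controls were 8.48, 9.07 and 7.51 without control 1, and 5.19, 4.84 and 3.81 without control 2.

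Within neutrophil-like barcodes the 10 genes took 26.8% of all UMIs in the LPS library, 8.52% in control 1 and 10.7% in control 2. With 34 barcodes in 1 library against 3 and 1, under the 20 barcodes per library asked of a class, no test was run, and ratios below carry counting intervals only. S100a8 stood at 101170 CPM in LPS neutrophil-like barcodes, 31150 in control 1 and 57008 in control 2, a ratio of 2.63 (2.39 to 2.90) to the pooled controls. S100a9 stood at 122040, 47713 and 44724 CPM, a ratio of 2.60 (2.39 to 2.84). The 3 barcodes of control 1 held 107, 81 and 64 S100a8 UMIs and 200, 106 and 80 S100a9 UMIs. Calprotectin transcripts were thus present in neutrophil-like barcodes of every library, and the libraries differed by a few-fold.

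Specific granule transcripts differed far more. Ngp had 7974 UMIs in 29 of 34 LPS barcodes and 0 UMIs in the 4 control barcodes, at least 69.8-fold higher against a floor of 3 UMIs over the pooled 11265 control UMIs. Camp had 1590 UMIs in 21 LPS barcodes and Ltf 601 in 15, and both had 0 UMIs in the control barcodes, that is 13.9-fold higher or more for Camp and 5.26-fold higher or more for Ltf. Chil3 also had 0 UMIs in the 4 control barcodes, against 2459 in 30 LPS barcodes, at least 21.5-fold higher.

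The other 4 genes had UMIs in neutrophil-like barcodes of the LPS library and of at least 1 control. Wfdc21 had 1837 LPS UMIs and 3 control UMIs, a ratio of 16.1 (5.49 to 78.0), and Pglyrp1 had 1185 and 3, a ratio of 10.4 (3.54 to 50.3). Retnlg was at 6802 CPM in LPS barcodes, 5192 in control 1 and 2520 in control 2, a ratio of 1.53 (1.16 to 2.07) to the pooled controls. Mmp8 was at 1864, 494 and 2520 CPM, a ratio of 1.75 with an interval that includes 1 (0.996 to 3.40), and its control 2 value exceeded the LPS value.

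Depth differed between these barcodes, with a median of 11070 UMIs (range 3781 to 40727) in the LPS library, 2579 (1812 to 3699) in control 1 and 3175 in the single barcode of control 2. After each barcode was thinned to 1000 UMIs, Ngp was detected in 26 of 34 LPS barcodes, Chil3 in 27, Camp in 16 and Ltf in 9, and all had 0 UMIs in the 3 and 1 control barcodes. The exact interval for 0 of 3 barcodes reaches 70.8%, so absence from control neutrophils was not shown at this number of cells. Of the 34 LPS barcodes, 32 also lay in the cluster named neutrophil. The other 2 were an endothelial-cluster barcode of 40727 UMIs with 1 S100a8 UMI and no other UMI of the 10 genes, and a monocyte-cluster barcode with 51 S100a8, 0 S100a9 and 160 Chil3 UMIs. Without them the ratios were 3.04 (2.77 to 3.35) for S100a8 and 3.01 (2.77 to 3.29) for S100a9, and Ngp was at least 80.7-fold higher.

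**Figure D2:**
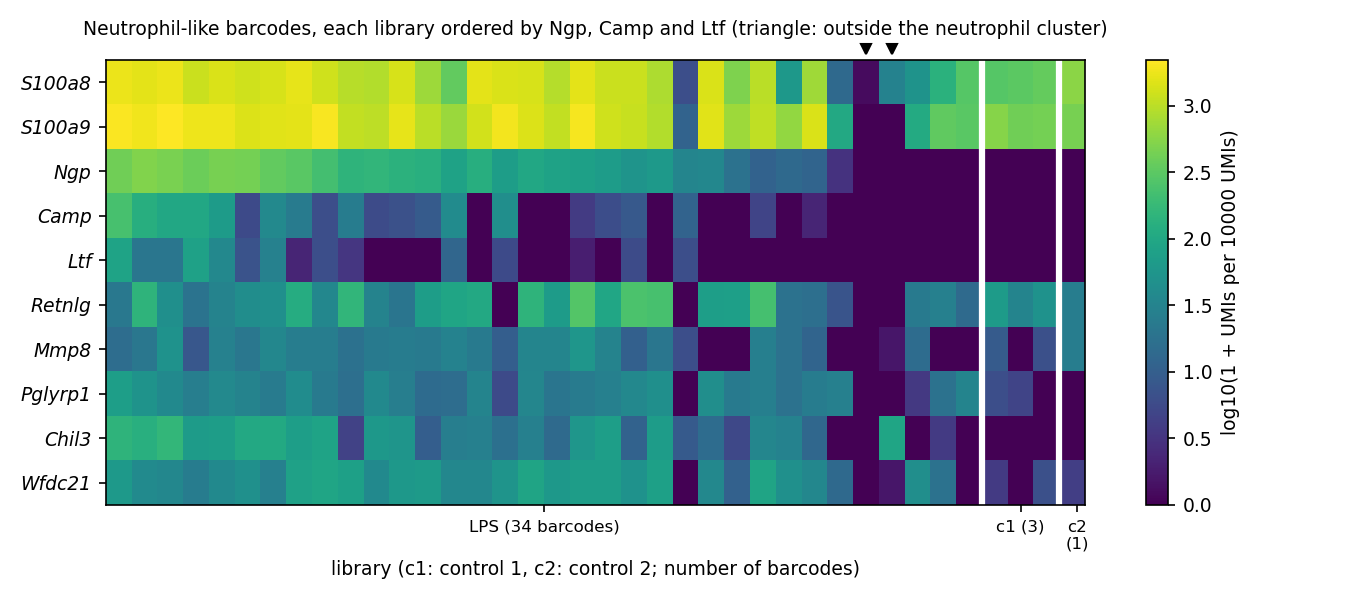
Each column is a neutrophil-like barcode of the LPS library (34), control 1 (3) or control 2 (1), each row a gene, and colour gives log10(1 + UMIs per 10000 UMIs of the barcode). Within a library barcodes run from high to low summed Ngp, Camp and Ltf, triangles mark the 2 LPS barcodes outside the neutrophil cluster, and Ngp, Camp, Ltf and Chil3 are at 0 in all control columns.

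LPS neutrophil-like barcodes were not alike. Over the 32 in the neutrophil cluster S100a8 ranged from 2 to 4379 UMIs with a median of 1151, and S100a9 from 4 to 5299 with a median of 1303.5. Both were detected in 32 of 32. Ngp ranged from 0 to 1287 UMIs (median 103.5), Camp from 0 to 581 (median 5.5) and Ltf from 0 to 218 (median 0). The specific granule genes were nested, since all 15 barcodes with Ltf had Camp and all 21 with Camp had Ngp, while 3 barcodes had none of the 3 genes. The 5 barcodes with at least 100 Camp UMIs held 1355 of the 1590 Camp UMIs and 520 of the 601 Ltf UMIs. Camp and Ltf thus came from few barcodes, while S100a8, Wfdc21 and Mmp8 were spread more evenly, with 37.9%, 33.1% and 35.8% of their UMIs in the 5 highest barcodes against 85.2% for Camp and 88.9% for Ltf.

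Levels per 10000 UMIs went together for some pairs and not for others. As a description over 32 barcodes of 1 library, Spearman's rho was 0.903 between S100a8 and S100a9, 0.846 between Camp and Ltf, 0.716 between Ngp and Camp and 0.781 between Ngp and Chil3. Retnlg had a rho of 0.183 with Ngp, -0.0294 with Camp and -0.0421 with Ltf. Ngp also followed the barcode's total UMIs with a rho of 0.803, against 0.199 for Retnlg, so barcode size is shared by these points. In the 16 barcodes with most summed Ngp, Camp and Ltf per UMI (median 13670 UMIs), Retnlg stood at 61.0 UMIs per 10000, against 109 in the other 16 (median 7987 UMIs). Chil3 stood at 83.1 against 26.3 and S100a8 at 1355 against 856, while Wfdc21 was level at 48.6 against 51.0. The summed Retnlg level was thus lower in the 16 barcodes with most specific granule transcripts, while its rank correlation with Ngp, the most abundant of them, was weakly positive.

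Markers of early precursors were close to absent from these barcodes. The primary granule genes Mpo, Elane and Ctsg and the precursor gene Ms4a3 had 0 UMIs in the 34 LPS barcodes, as did the proliferation genes Mki67 and Top2a, and Prtn3 and Prss57 had 1 UMI each. Cebpe, the transcription factor of late granulocyte precursors that acts on specific granule genes, had 33 UMIs in 11 LPS barcodes and 0 in the control barcodes. Lcn2, another specific granule gene, had 11125 UMIs in 34 of 34 LPS barcodes, 0 in control 1 and 3 in control 2, a ratio of 97.3 (33.3 to 472). Only 11125 of the 60259 Lcn2 UMIs of kept LPS barcodes were neutrophil-like, so most Lcn2 transcripts of the LPS library lay in other barcodes.

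Calprotectin transcripts were also found outside neutrophil-like barcodes of the LPS library. In 6 classes taken as not making them (lymphoid-, endothelial-, fibroblast-, mesothelial- and erythroid-like and near-empty barcodes), S100a8 gave 0.0615 to 0.104 UMIs per barcode and S100a9 0.0926 to 0.167. The same classes spanned 10.8 to 50.8 CPM for S100a8 and 13.6 to 81.7 CPM for S100a9, since their depth ran from a median of 1894 UMIs in near-empty to 7787 in erythroid-like barcodes. The level per barcode thus varied less between classes than the level per UMI. In control 2, 2485 barcodes outside neutrophil- and phagocyte-like ones held 3 S100a8 UMIs and 1 S100a9 UMI, and control 1 held 0 of either outside neutrophil-like barcodes. A further 3 near-empty LPS barcodes with at least 20 UMIs of the pair held 260 S100a8 and 285 S100a9 UMIs and are left out of these ranges. The 27 adipocyte-like LPS barcodes, not among the 6 classes, held 8 S100a8 UMIs in 4 barcodes and 4 S100a9 UMIs in 3, or 0.296 (0.128 to 0.584) and 0.148 (0.0404 to 0.379) per barcode.

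The make-up of the pair gave a second measure. S100a8 was 45.3% of S100a8 plus S100a9 UMIs in LPS neutrophil-like barcodes (95% exact interval 45.0 to 45.6), 39.5% in control 1 (35.7 to 43.4) and 56.0% in control 2 (50.4 to 61.5). In LPS barcodes of other classes it was 44.4% in erythroid-like (36.5 to 52.4), 43.4% in fibroblast-like (29.8 to 57.7), 42.6% in endothelial-like (28.3 to 57.8) and 41.2% in lymphoid-like barcodes (18.4 to 67.1). All of these intervals hold the neutrophil-like value. In near-empty barcodes without the 3 above it was 38.3% (35.1 to 41.6), below it.

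**Figure D3:**
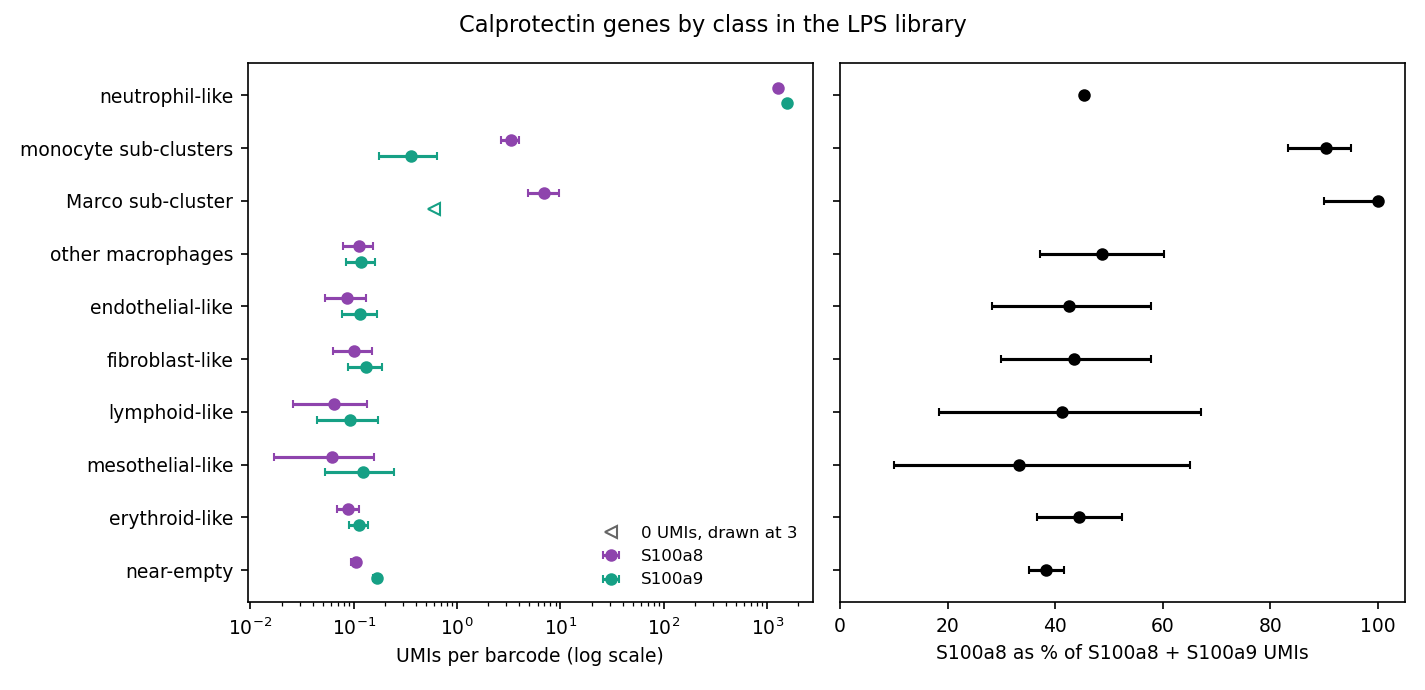
The left panel gives S100a8 and S100a9 UMIs per barcode (log axis, exact Poisson 95% intervals, open triangle for 0 UMIs drawn at 3) and the right panel S100a8 as a percentage of both (exact binomial 95% intervals) by class of the LPS library, without the phagocyte-like barcode and the 3 near-empty barcodes rich in both. Macrophages other than the Marco sub-cluster sit with the classes taken as not making the genes. The monocyte and Marco sub-clusters lie apart in the right panel and, for S100a8, in the left panel. The Marco sub-cluster had 0 S100a9 UMIs in 5 barcodes, so the height of its triangle is not a measured level.

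In phagocyte-like cells, the macrophages, monocytes and dendritic cells of the preparation, S100a8, S100a9 and Wfdc21 had UMIs in the LPS library alone. The same held for Ngp, Retnlg and Ltf, with 10, 9 and 4 LPS UMIs. S100a8 had 495 UMIs in 386 LPS barcodes and 0 in the 81 and 211 control barcodes, at least 83.8-fold higher, and S100a9 had 267 UMIs against 0 and 0, at least 45.2-fold higher. Wfdc21 had 54 UMIs against 0 and 0, at least 9.14-fold higher. In edgeR's test 3 of the 5 genes tested were called higher (adjusted p = 5.02e-18, 2.63e-15 and 0.00196), where 3.38% of 8894 genes were called higher and 1.77% lower. All 3 passed the filter on low counts through the LPS library alone and so had to differ, and the count is a description only. The other 5 genes had too few UMIs for the test, from 0 for Camp to 20 for Mmp8 in the LPS library. With a mitochondrial limit of 10% none of the 3 was called (adjusted p = 0.160, 0.160 and 0.347). At that limit 0 of 6835 genes were called in either direction, so the loss was not particular to these 3. The class was held by different sub-clusters in the groups. In the LPS library these were mainly those led by Ccl5, Dnase1l3 and Ms4a6d, and in the controls those led by H2-Eb1, Cd74 and C1qa. The largest LPS sub-cluster, with 183 of the 386 barcodes, had 48.86% Gm42418, above the limit for calling an unnamed sub-cluster near-empty. The next, with 137 LPS barcodes, had 23.48%. The largest sub-cluster was at 19.45% in control 1 (50 barcodes) and at 3.57% in control 2 (100 barcodes). The part of this difference in the calls was not tested.

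Most of this signal sat in few barcodes. A single phagocyte-like barcode of 15580 UMIs held 317 S100a8 and 215 S100a9 UMIs, with 28 UMIs of 10 neutrophil markers and 122 UMIs of 8 macrophage markers. Its S100a8 share of the pair was 59.6% (55.3 to 63.8), and whether it was a doublet or a phagocyte that had taken up a neutrophil was not tested. In all, 25 LPS barcodes, 0 of control 1 and 2 of control 2 had at least 3 markers of both cell types. Without this barcode the adjusted p was 1.64e-12 for S100a8, 0.00283 for S100a9 and 0.0930 for Wfdc21 (edgeR), again for genes that entered the test through the LPS library alone.

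The monocyte-named sub-cluster showed S100a8 nearly without S100a9. Its 31 LPS barcodes held 102 S100a8 UMIs in 12 barcodes and 11 S100a9 UMIs in 7, so that S100a8 made up 90.3% of the pair (83.3 to 95.04). That is 3.29 S100a8 UMIs per barcode and 0.355 S100a9 UMIs per barcode, at a median of 16728 UMIs. The single highest barcode held 35 of the 102, and without it 67 S100a8 and 7 S100a9 UMIs remained. A sub-cluster of 5 macrophage-like LPS barcodes led by Cxcl13 and Marco held 35 S100a8 and 0 S100a9 UMIs (90.0 to 100%). Its median depth was 35762 UMIs, and its score was 5.456 for macrophage markers and 3.193 for neutrophil markers, the next class. The 51 S100a8 and 0 S100a9 UMIs of the gated monocyte-cluster barcode described above show the same pattern. The 12 monocyte-named barcodes of the controls (7 and 5) had 0 UMIs of either gene, in sums of 79452 and 55417 UMIs.

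Other macrophages were near the level of the classes taken as not making the genes. The 342 LPS macrophages outside the Marco sub-cluster and without the barcode above had 38 S100a8 and 40 S100a9 UMIs. That is 0.111 (0.0786 to 0.153) and 0.117 (0.0836 to 0.159) per barcode, with 48.7% S100a8 (37.2 to 60.3). The S100a8 value lay just above the 0.0615 to 0.104 of those classes, with an interval that reached into it. The S100a9 value lay within their 0.0926 to 0.167. These macrophages included barcodes of the LPS sub-cluster rich in Gm42418 described above. Thinning was done for all phagocyte-like barcodes, monocyte and Marco sub-clusters included, and not for these macrophages apart. After thinning to 1000 UMIs, 6.48% of phagocyte-like LPS barcodes had an S100a8 UMI (4.23 to 9.41), against 1.85% of lymphoid-like ones (0.225 to 6.53). Unthinned, the shares were 13.99% and 5.56% at median depths of 2139.5 and 4842.5 UMIs. For S100a9 the thinned shares were 4.15% (2.39 to 6.64) and 1.85% (0.225 to 6.53). The intervals overlapped for both genes.

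Chil3, Pglyrp1 and Wfdc21 also had sources other than neutrophil-like barcodes. Chil3 had 307 UMIs in 20 of 31 monocyte-named LPS barcodes, 6 in 2 of 7 in control 1 and 65 in 3 of 5 in control 2, where a single barcode held 47. Over phagocyte-like cells it was at 162 CPM in the LPS library, 29.1 in control 1 and 81.0 in control 2, and was not called (log2 fold change 1.62 ± 0.56, adjusted p = 0.0644, edgeR). Without a count filter it was called (adjusted p = 0.0485). Outside the monocyte-named barcodes the same class held 15 LPS UMIs of Chil3 in 348 macrophage-named barcodes. Wfdc21 had 28 UMIs in 5 monocyte-named LPS barcodes and 0 in those of the controls.

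Most control UMIs of Pglyrp1 lay outside neutrophil-like barcodes, 15 of 18 in control 1 and 64 of 64 in control 2. In phagocyte-like cells it had 34 UMIs in the LPS library, 6 in control 1 and 9 in control 2, with a log2 fold change of 0.12 ± 0.86 (adjusted p = 0.989, edgeR), and the sign turned without control 2. A natural killer-like sub-cluster marked by Klrd1 had 8 UMIs in 12 LPS barcodes, 7 in 3 of control 1 and 12 in 19 of control 2. B-like barcodes had 1 UMI in 18 LPS barcodes, 1 in 6 of control 1 and 11 in 18 of control 2. In the LPS library alone an endothelial-like sub-cluster of 59 barcodes held 19 of the 22 endothelial-like Pglyrp1 UMIs, at a median of 16631 UMIs per barcode. Low levels of Pglyrp1 were thus measured in several classes of every library.

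The remaining classes gave no call among the 10 genes. In endothelial-like cells 0 of 1 gene tested was called, where 5.38% of 9205 genes were called higher and 5.18% lower, and S100a9 had 27 LPS UMIs against 0 and 0 in the controls (adjusted p = 0.0746, edgeR). Its level there, 0.116 UMIs per barcode, lay within the range of the classes taken as not making it. No endothelial-named sub-cluster held barcodes of both groups. The largest one of the controls had 39 of the 54 barcodes of control 1 and 164 of the 214 of control 2. Its score was 2.983 for endothelial and 2.694 for smooth muscle markers, so its name rests on the lowered margin. Without it 15 and 50 control barcodes remained. The part of this make-up in the calls of this class was not tested. Without a count filter S100a9 was called in these cells (adjusted p = 0.00849), and with free RNA subtracted at the lymphoid-like rate it was not among the genes with enough UMIs to test. In fibroblast-like cells, where 8.21% of 5395 genes were called higher and 4.93% lower, none of the 10 had enough UMIs to be tested. In lymphoid-like cells Pglyrp1 alone was tested and had 13 LPS UMIs against 7 and 27 in the controls (20.4, 6.71 and 2.83 CPM, log2 fold change 2.37 ± 1.05, adjusted p = 0.410). There edgeR called 0 of 9568 genes in either direction (0%), with 771 higher and 575 lower at an unadjusted p under 0.05, and DESeq2 called 143 higher and 30 lower. A difference of the LPS response between endothelial-like and phagocyte-like cells could be fitted for Pglyrp1 (0.46 ± 1.07) and Chil3 (0.83 ± 1.46), both with an adjusted p of 1 by edgeR, where 0.228% of 10549 genes had a higher and 0.237% a lower response in endothelial-like cells. It could not be fitted for S100a8, S100a9 and Wfdc21, whose controls were at 0 in both classes. In endothelial-like cells Chil3 had 1 LPS UMI and 0 in each control. Its response there was thus not measurable, and its fitted difference decides nothing.

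Over 19 sums of UMIs per class and library, the 8 other genes whose log2(CPM + 1) was most like that of S100a8 were Acod1, Nos2, Slfn4, Fpr1, Il1rn, Orm1, Lipg and Cstdc4, with Pearson's r from 0.932 for Acod1 to 0.864 for Cstdc4. Of the 10 genes S100a9 ranked next to S100a8 among 11940 ranked genes, Ngp ranked 6 and Wfdc21 9, while Chil3 ranked 55 and Pglyrp1 82. The sums share libraries, so r is a description. Fpr1, a receptor for bacterial formyl peptides, is itself among the gate's markers. Neutrophil-like LPS barcodes held 75.7% of the Fpr1 UMIs, 84.6% of those of Lipg and 86.2% of those of Cstdc4, but 26.8% of those of Acod1 and 12.3% of those of Nos2.

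Related genes were counted from 7 lists over all kept barcodes, where 13.4% of all 14714 genes tested were called higher and 9.71% lower. Of other secondary and tertiary granule genes, 15 of 19 measured were called higher, 0 lower and 4 did not pass, with a median log2 fold change of 5.05 against -0.001 for all genes tested. Mmp9 and Cd177 of this list are also markers of the neutrophil gate. Among those higher were Lcn2 (60259 LPS UMIs against 0 and 4), Hp, the haemoglobin-binding haptoglobin (6529 against 19 and 97), Lrg1 (1339 against 1 and 20) and the chitinase-like Chil1 (355 against 0 and 1). Of primary granule genes 4 of 9 were higher (Mpo, Elane, Prtn3 and the proteoglycan gene Srgn) and 1 lower (Prss57, with 6 LPS UMIs against 16 and 151, nearly all in lymphoid-like barcodes), with a median of 1.85. Lcn2, Chil1, Itgb2l, Olfm4, Fcnb, Mmp25, Cd177, Mpo, Elane and Prtn3, all among those called higher, had 0 to 9 UMIs in each control. These genes passed the filter on low counts through the LPS library alone and so had to differ. The counts and medians of their lists are descriptions that include them. In NADPH oxidase genes, which make the oxidative burst, 3 of 6 were higher and 0 lower (median 1.43), among them Ncf1 (707 UMIs against 35 and 130). Of calprotectin receptors and partners 4 of 10 were higher and 0 lower (median 1.14), among them the LPS co-receptor gene Cd14 (1377 against 25 and 313) and Tlr4 (294 against 14 and 85).

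Other S100 genes did not follow the calprotectin pair as a group. Over all kept barcodes 13.4% of all genes tested were called higher and 9.71% lower. Of 8 measured, 2 were higher, 0 lower and 6 did not pass (median 0.58), with S100a11 at 6404 LPS UMIs against 501 and 3358 and S100a6 at 8108 against 1046 and 4757 without a call (adjusted p = 0.147, edgeR). Of close paralogues of the 10 genes 4 of 10 were higher and 1 lower (median 1.28), Pglyrp2 being the lower with 8 LPS UMIs against 39 and 343. Among the 4 higher was Chil1, which had to differ as stated above. Of granulocyte transcription factors 6 of 9 were higher and 2 lower (median 1.57). Of these 6, Cebpe (37 LPS UMIs against 1 and 0) and Klf5 (41 against 0 and 6) passed the filter through the LPS library alone. Both thus had to differ. Cebpd had 5487 LPS UMIs against 113 and 386 and Cebpb 5481 against 111 and 519, and Gfi1, which is also a lymphoid factor, was lower with 18 against 28 and 529, as was Runx1 with 446 against 155 and 1394. Cell make-up differed between the libraries, with 108 lymphoid-like barcodes in the LPS library against 158 and 1663, and its part in these counts was not tested.

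In phagocyte-like cells, from which neutrophil-like barcodes were left out, the same lists were counted again. There 3.38% of all 8894 genes tested were called higher and 1.77% lower. Of other secondary and tertiary granule genes 4 of 13 measured were higher and 1 lower (median 0.61 against -0.04 for all genes). Lcn2 had 5490 LPS UMIs against 0 and 0, Mmp25 43 against 0 and 0 and Hp 1754 against 4 and 24. The integrin gene Itgam had 1273 against 30 and 42, while Lyz1 was called lower with 57 against 55 and 9. Normalized for depth, Lyz1 stood at 30.7 CPM in the LPS library, 296 in control 1 and 9.89 in control 2, so the LPS value lay above control 2 and the call rested on control 1. NADPH oxidase genes gave 0 calls of 6 (median 0.06), and granulocyte transcription factors 0 of 6 (median -0.25). Of calprotectin receptors and partners 1 of 9 was higher, the adaptor gene Myd88 (182 against 3 and 26, list median 0.33). Of other S100 genes 0 of 7 were higher and 1 lower, S100a1 (60 against 26 and 94, list median -0.16), and of close paralogues 0 of 5 were higher and 2 lower, Retnla (157 against 357 and 44) and Mmp13 (56 against 10 and 166), with a list median of 0.61. Retnla too stood above control 2, at 84.6 normalized CPM in the LPS library, 1921 in control 1 and 48.3 in control 2. In this class 2 of 7 primary granule genes were higher, Mpo (45 UMIs against 0 and 0) and Prtn3 (99 against 0 and 7), with a list median of 3.13. Mpo and Prtn3, like Lcn2 and Mmp25, passed the filter on low counts through the LPS library alone and so had to differ. Elane (30 against 0 and 0) and Cst7 (43 against 0 and 1), not called, entered the list median in the same way.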

How the data were processed

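Single-cell RNA of 3 libraries (LPS, control 1 and control 2, the controls numbered in the order of deposit) was read from the count matrices deposited by the authors, which hold whole UMI counts for 32285 genes. Cell Ranger 3.1, R 4.2.1, Seurat 4.2.0 and the mm10 genome are named in the submitters' processing notes, with no settings stated. The barcode filter required 500 or more UMIs, 300 or more genes and a mitochondrial share of no more than 15%, and doublets were not removed.

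Neutrophil-like barcodes were gated on 15 markers other than the 10 genes. The other classes came from Leiden clustering in 2 steps without the 10 genes (scanpy 1.11.5, leidenalg 0.10.2, 2000 variable genes, resolution 1.0 and then 0.5). Sub-clusters were named from marker lists with a margin of 0.25 over the next class on the log2 scale, a margin lowered from 0.5 after the data were seen. Barcodes of unnamed sub-clusters with over 40% Gm42418 were called near-empty. Names rebuilt this way may differ from the study's own.

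UMIs were summed per library and class and tested with edgeR 4.0.16 (TMM factors, its filter on low counts, quasi-likelihood test, Benjamini-Hochberg threshold 0.05, 1 residual degree of freedom), and DESeq2 1.42.0 was an alternative. The script was tested on simulated counts. Nothing pairs the libraries. With 1 LPS library, p-values rest on the spread between 2 control libraries of pooled mice, which may be technical. Intervals are 95% exact Poisson or Clopper-Pearson intervals and cover counting error only. All 10 genes are named, and of other genes those most like S100a8 by Pearson's r (8 genes, at least 50 UMIs) and members of the 7 lists. The genes and lists were chosen with earlier results of these data known. Gene positions are from GENCODE M21 and promoter letters from RefSeq.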

Additional observations from a re-analysis of the deposited data

Results flagged for a closer look

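Barcodes that failed the filters also held calprotectin transcripts, in data the comparisons did not use. The 844 LPS barcodes left out had 88 S100a8 and 137 S100a9 UMIs, against 0 and 0 in 838 barcodes of control 1 and 2 and 0 in 2116 barcodes of control 2. That is 0.104 S100a8 UMIs per LPS barcode with at most 3 in any of them, beside 0.0615 to 0.104 in the kept LPS classes taken as not making the gene. The source of these UMIs was not tested.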

How the results depend on the processing

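Of 19 tests of the 10 genes, 13 were called. Over their alternatives 98 values kept direction and side of the threshold, 11 lost and 3 gained a call, and 2 reversed, both for Pglyrp1 in phagocyte-like cells (-0.32 with a mitochondrial limit of 10% and -0.05 without the barcode richest in the 10 genes). With a control left out, differences of log2(CPM + 1) kept their sign in 78 cases and reversed in 2, for Pglyrp1 in phagocyte-like cells (0.91 without control 1, -0.68 without control 2) and Mmp8 in endothelial-like cells (-0.43 without control 1, 0.68 without control 2). Most of the 78 were fixed in advance, since both controls had the same value and leaving a control out could not change the difference. An example is S100a8 in phagocyte-like cells, at 8.11 without either control. Counts over all genes (higher, then lower) moved more. DESeq2 called 62 and 25 in phagocyte-like cells (301 and 157 with edgeR), 137 and 119 in endothelial-like cells (495 and 477), 76 and 66 in fibroblast-like cells (443 and 266), 143 and 30 in lymphoid-like cells (0 and 0) and 1040 and 858 over all kept barcodes (1970 and 1429). A mitochondrial limit of 10% gave 0 and 0 in phagocyte-like cells, 135 and 31 in lymphoid-like cells and 247 lower in endothelial-like cells. Without a count filter fibroblast-like cells gave 0 and 0 and lymphoid-like cells 543 and 395. All deposited barcodes gave 948 lower. The LPS neutrophil-like share became 0.97% with at least 2 markers, 1.78% without near-empty barcodes and 3.06% without near-empty and erythroid-like ones, the last 2 chosen after seeing the data, and that of control 2 became 0% with the mitochondrial limit of 10%. Thinned to 500 UMIs, 3.89% of phagocyte-like and 0% of lymphoid-like LPS barcodes had an S100a8 UMI, and 0% of lymphoid-like ones an S100a9 UMI. The cause was not tested. No paired analysis was possible because the labels give no replicate numbers. Counts have no value with a control left out, since no residual degree of freedom remains.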

Other observations

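The primary granule genes Mpo, Elane and Prtn3, picked after their values were seen, had nearly all their LPS UMIs outside neutrophil-like barcodes. Others of the list did not, since Srgn had 1060 of 7529 UMIs and Serpinb1a 85 of 165 in neutrophil-like barcodes. Elane, the gene of neutrophil elastase, had 30 UMIs, all in 5 barcodes of the monocyte-named sub-cluster. Mpo, the myeloperoxidase gene, had 52 UMIs, of which 45 lay in 3 barcodes of that sub-cluster and 24 in a single barcode. Prtn3, the proteinase 3 gene, had 102 UMIs, 99 of them in 8 such barcodes and 1 in a neutrophil-like barcode. In the controls Mpo and Elane had 0 UMIs, and Prtn3 had 0 in control 1 and 9 in control 2.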
